A study of Glycine max with 10 samples.

Results

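Biotype 1 of the soybean aphid (Aphis glycines) was placed alone on soybean plants, and the leaf transcriptome at day 11 was set against that of plants without aphids. The comparison rests on 4 of the 10 RNA-seq libraries of the series, chosen by their labels: 15 biotype 1 aphids and no inducer in the susceptible and in the resistant cultivar, and the no-aphid control of each cultivar, all at day 11. The susceptible cultivar is LD12-15838R in the labels (LD12-1583R in the paper) and the resistant cultivar is LD12-15813Ra, which carries the Rag1 gene. No age or growth stage of the plants is given in the sources used here. The other 6 libraries are the inducer treatment (50 biotype 2 aphids followed by 15 biotype 1 aphids) in both cultivars at day 1 and day 11, and the controls of both cultivars at day 1. Leaf RNA of 3 replicates was pooled for each library. Every condition therefore has 1 library, and no difference within a cultivar has a replicate check.

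The soybean aphid feeds from the phloem with a fine stylet and takes up sap rather than chewing leaf tissue. Plants are known to answer phloem feeders with salicylate and jasmonate signalling, with callose in the sieve tubes and with changes in the supply of sugars and amino acids. Rag1 maps to chromosome 7 and limits biotype 1, which is called avirulent for that reason, whereas biotype 2 can live on Rag1 plants. The files give genes by their identifiers in the Wm82.a2.v1 annotation only. A match of the 55983 identifiers with the reference gene table found 0 of them, for which reason genes carry no names or roles below and leaf marker genes were not looked up. The chromosome of a gene is read from its identifier, whose numbers run along the chromosome.

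The total of estimated counts in the 4 libraries lay between 23894333 and 25212419. A limit of 3 counts corresponded to between 0.109 and 0.138 CPM (counts relative to library size, scaled by the TMM factors of edgeR, which correct for differences in RNA composition). The 37468 genes with over 0.5 CPM in at least 1 of the 10 libraries were compared. The 10 most abundant genes held 5.36% of all counts of the susceptible library with biotype 1, against 9.83% in the susceptible control. In the resistant cultivar these shares were 6.57% with biotype 1 and 6.69% in the control. The median log2 ratio of all genes in the susceptible pair was 0.03 with TMM scaling and 0.26 with library totals, and in the resistant pair 0.00 and 0.07. Levels are those of pooled leaf tissue, in which fewer cells of a type and less RNA per cell cannot be told apart.

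The labels of the 4 libraries were set against the data. A gap of at least 8-fold parted both susceptible from both resistant libraries for 252 genes, 213 of them high in the susceptible and 39 high in the resistant libraries. By contrast, a gap of that size parted both biotype 1 libraries from both controls for 0 genes. Among all 10 libraries, however, the one closest to the susceptible library with biotype 1 was the library labelled resistant, inducer, day 1, with 1013 genes past the threshold given below, against 3051 genes between it and its own control. Likewise, the one closest to the resistant library with biotype 1 was labelled susceptible, inducer, day 1, with 1133 genes, against 1432 genes between it and its own control. The resistant control was closest to the library labelled susceptible, control, day 1, with 964 genes. The difference between each biotype 1 library and its control was therefore larger than the smallest difference between libraries of other labelled cultivar and day. What lies behind these distances was not tested.

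Within each cultivar, a gene was called when Kal's z-test on the counts of the 2 libraries gave a Benjamini-Hochberg adjusted value under 0.05 and the log2 ratio of CPM + 0.5 was at least 2-fold. This test compares 2 libraries, not 2 conditions, because it has no measure of how plants under the same condition vary. In the susceptible cultivar 3051 genes were called (8.14% of all tested), 1041 higher (2.78%) and 2010 lower (5.36%) with biotype 1 than in the control. In the resistant cultivar 1432 genes were called (3.82%), 444 higher (1.19%) and 988 lower (2.64%). Lower genes were thus more frequent than higher ones in both pairs, but in the susceptible pair this division depended on the scaling. With library totals in place of TMM it had 2290 higher and 1129 lower genes, so that 67.0% were higher, against 34.1% with TMM. In the resistant pair 554 genes were higher and 819 lower with library totals. The quartiles of all log2 ratios were -0.32 and 0.34 in the susceptible pair and -0.22 and 0.21 in the resistant pair.

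**Figure D1:**
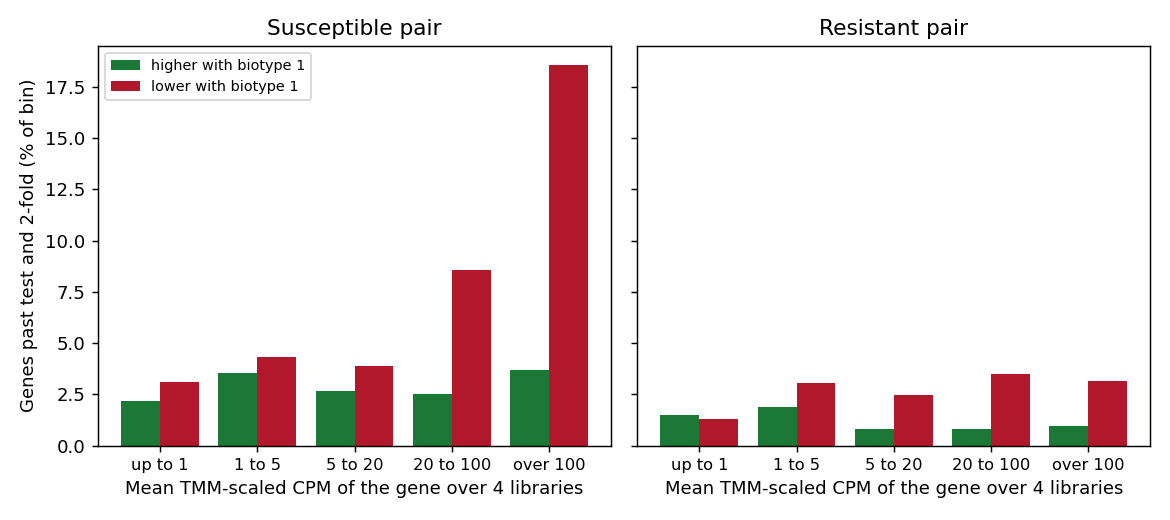
Percentage of genes called higher (green) or lower (red) with biotype 1 than in the control at day 11, by the mean TMM-scaled CPM of the gene over the 4 libraries, in the susceptible pair (left) and the resistant pair (right). Lower genes made up 18.6% of the susceptible bin over 100 CPM and 3.15% of the same bin in the resistant pair.

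In the susceptible cultivar abundant transcripts were called lower more often than rare ones. Of the 1363 genes with a mean over 100 CPM, 18.6% were lower with biotype 1, against 3.10% of the 6547 genes with up to 1 CPM. The share in between was 4.34% at 1 to 5 CPM, 3.86% at 5 to 20 CPM and 8.54% at 20 to 100 CPM. Higher genes made up 2.15% of the lowest and 3.67% of the highest bin. In the resistant cultivar lower genes made up 1.28% of the lowest and 3.15% of the highest bin. With library totals the susceptible shares of lower genes were smaller, with 10.1% over 100 CPM and 2.17% up to 1 CPM, and 7.92% of the genes over 100 CPM were higher. The 2 pairs thus differed in the bin over 100 CPM, and also in the change of the share of counts held by the 10 most abundant genes. Whether these differences are connected was not tested. The median log2 ratio of the genes over 100 CPM was -0.22 in the susceptible and -0.01 in the resistant pair with TMM, and 0.06 and 0.07 with library totals, under which the median of all genes was 0.26 and 0.07.

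Few genes were called in both cultivars in the same direction. Both cultivars had lower levels of 144 genes (0.384% of all tested) with biotype 1, which are 7.16% of the genes lower in the susceptible and 14.6% of those lower in the resistant cultivar. For comparison, 2.64% of all genes were lower in the resistant and 5.36% in the susceptible cultivar. Both had higher levels of 29 genes (0.0774%), which are 2.79% of the genes higher in the susceptible and 6.53% of those higher in the resistant cultivar, against 1.19% and 2.78% of all genes. The 144 lower genes had a median mean level of 32.5 CPM, and their median log2 ratios were -1.37 in the susceptible and -1.14 in the resistant pair, while those of all genes were 0.03 and 0.00. The 29 higher genes were less abundant, with a median of 3.43 CPM, and had median log2 ratios of 1.43 and 1.17. Under library totals and DESeq2 size factors as well, 66 of the 144 and all 29 were still called. With a pseudocount of 2 CPM 91 of the 144 and 6 of the 29 were still called, and with over 0.5 CPM required in all 4 libraries 130 and 18.

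**Figure D2:**
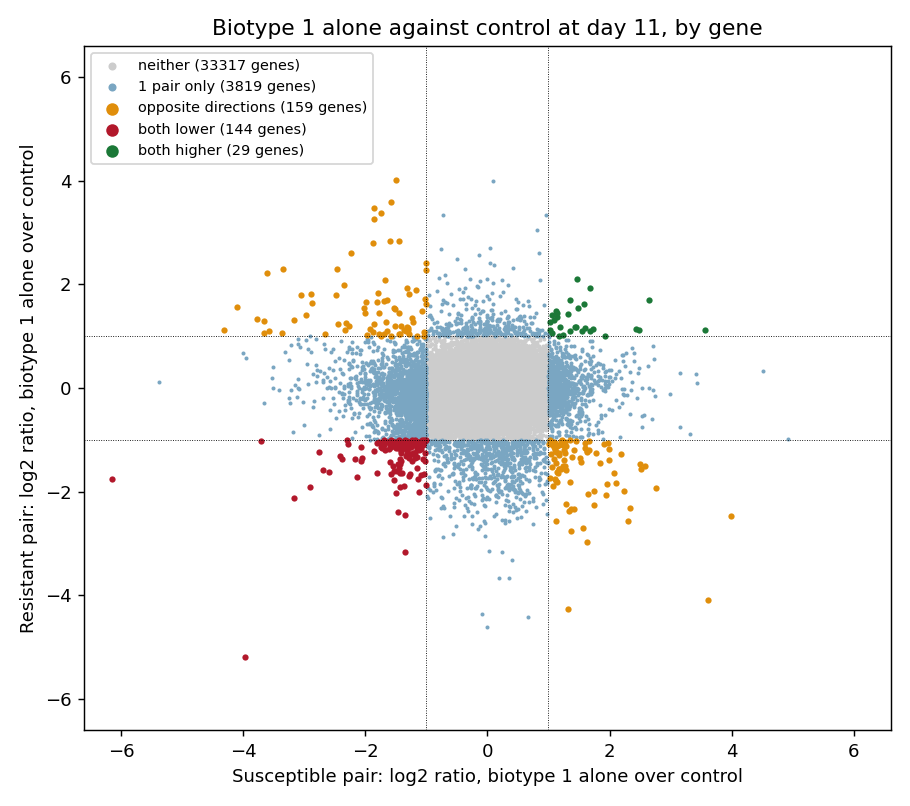
Log2 ratio of CPM + 0.5, biotype 1 alone over control at day 11, in the susceptible pair (horizontal axis) and the resistant pair (vertical axis), 1 point per gene for 37468 genes. Dotted lines mark the 2-fold limits, and 29 genes were higher and 144 lower in both pairs, whereas 929 and 1790 were called in the susceptible pair only.

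The pair of genes that were lowest in both cultivars, among those with a mean of at least 5 CPM, lie on chromosomes 2 and 11. Glyma.02G228100 had 0.264 CPM in the susceptible library with biotype 1, against 11.4 CPM in the susceptible control. In the resistant cultivar it had 3.39 CPM with biotype 1, against 141 CPM in the control. Its level with biotype 1 was 43.1-fold lower in the susceptible cultivar (95% exact interval 20.6 to 108) and 41.5-fold lower in the resistant cultivar (33.8 to 51.6). These intervals cover counting error only, and the smallest of the 4 values rests on 7 counts. In the other aphid libraries the gene had 1.84 CPM in susceptible, inducer, day 1, 5.70 CPM in susceptible, inducer, day 11, 0.292 CPM in resistant, inducer, day 1 and 1.83 CPM in resistant, inducer, day 11, and in the controls of day 1 it had 82.3 CPM in the susceptible and 420 CPM in the resistant cultivar. All 6 libraries with aphids were therefore below all 4 controls, although the controls themselves differed widely. The direction between biotype 1 and control within each cultivar was fixed by the choice of the gene. All 4 inducer libraries were below both controls of day 1 for 9.41% of all genes. The share of all genes with the 6 aphid libraries on 1 side of the 4 controls is not given here.

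Glyma.11G121800 had 5.18 CPM with biotype 1, against 50.4 CPM in the control, in the susceptible cultivar. It had 18.3 CPM with biotype 1, against 81.4 CPM in the control, in the resistant cultivar. The levels with biotype 1 were 9.74-fold lower (95% exact interval 8.15 to 11.7) and 4.45-fold lower (4.04 to 4.92) in the susceptible and the resistant pair. In the inducer libraries it ranged between 2.11 CPM (resistant, day 11) and 22.9 CPM (susceptible, day 11), and in the controls of day 1 it had 61.0 CPM in the susceptible and 226 CPM in the resistant cultivar. The 6 libraries with aphids and the 4 controls again did not overlap, but the choice of the gene fixed the direction within each cultivar at day 11. The preceding identifier, Glyma.11G121700, was also lower in both cultivars, and where neighbours are near-identical copies their reads may be split between them. It had 41.7 CPM with biotype 1, against 185 CPM in the control, in the susceptible cultivar, and 48.8 against 161 CPM in the resistant cultivar.

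**Figure D3:**
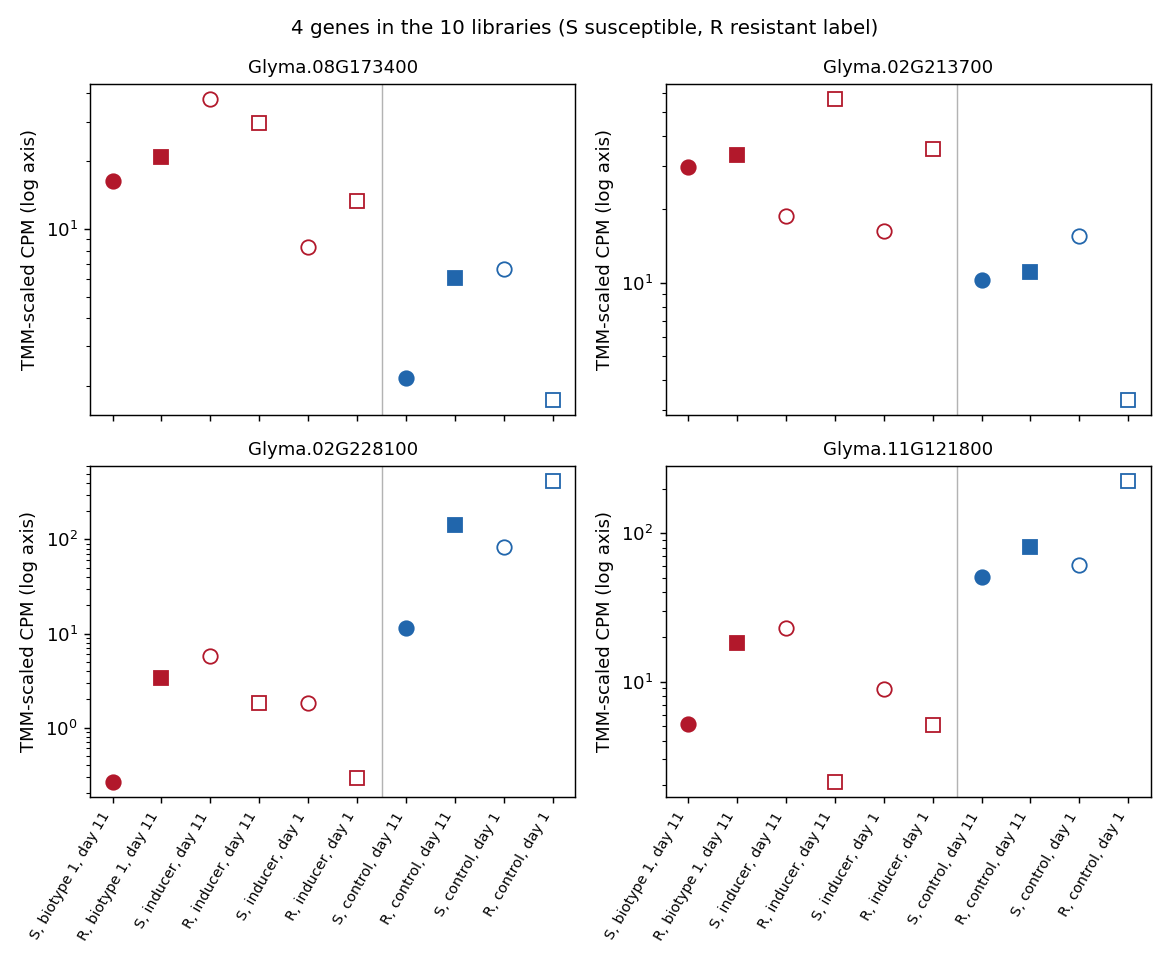
TMM-scaled CPM (log axes) of 4 genes in the 10 libraries, aphid libraries in red on the left and controls in blue on the right. Circles are the susceptible and squares the resistant label, and filled symbols mark the 4 libraries of the comparison. In each of the 4 genes the 6 aphid libraries lie on 1 side of the 4 controls. The share of all genes with this separation is not given here. The choice of the genes fixed the direction between the filled symbols of each cultivar.

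The pair of genes with the largest increase in both cultivars by the same rule lie on chromosomes 8 and 2. Glyma.08G173400 had 16.2 CPM with biotype 1, against 2.17 CPM in the control, in the susceptible cultivar, and 20.8 against 6.03 CPM in the resistant cultivar. The levels with biotype 1 were 7.49-fold higher (95% exact interval 5.53 to 10.4) and 3.44-fold higher (2.87 to 4.15). The inducer libraries had between 8.31 and 37.9 CPM, and the controls of day 1 had 6.66 CPM in the susceptible and 1.74 CPM in the resistant cultivar, so that aphid libraries and controls did not overlap. All 4 inducer libraries were above both controls of day 1 for 7.78% of all genes.

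Glyma.02G213700 had 29.8 CPM with biotype 1, against 10.3 CPM in the control, in the susceptible cultivar, and 33.6 against 11.1 CPM in the resistant cultivar. These are a 2.90-fold (95% exact interval 2.50 to 3.38) and a 3.02-fold (2.64 to 3.47) higher level. The inducer libraries had between 16.4 and 56.9 CPM. The controls of day 1 had 15.6 CPM in the susceptible and 3.32 CPM in the resistant cultivar. The lowest aphid library, susceptible, inducer, day 1, was thus just above the highest control.

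The levels of the shared genes were also read in the 6 libraries that had no part in choosing them. These cannot be taken as independent of the 4 others, since the nearest library of both biotype 1 libraries and of the resistant control is among them, as given above. The shares below are therefore a description and not a check of the shared genes. For 113 of the 144 lower genes (78.5%) all 4 inducer libraries were below both controls of day 1, which held for 9.41% of all genes. For 11 of the 29 higher genes (37.9%) all 4 inducer libraries were above both controls of day 1, against 7.78% of all genes. The library labelled resistant, control, day 1 stands apart from the others, with the lowest TMM factor (0.772) and 10.4% of its counts in its 10 most abundant genes. With the susceptible control of day 1 alone, the counts were 119 genes (82.6%, against 17.2% of all genes) and 12 genes (41.4%, against 14.5%). The comparison of inducer with control at day 1, which shares no library with that of biotype 1 at day 11, had 44 of the 144 genes called lower in the susceptible cultivar (30.6%, against 4.16% of all genes). In the resistant cultivar it had 121 of them (84.0%, against 13.9%), and 34 in both (23.6%, against 1.13%). The resistant comparison rests on the control of day 1 that stands apart. Its inducer library is the one closest to the susceptible library with biotype 1. Of the 29 higher genes, 2 were called higher in the susceptible (6.90%, against 2.85% of all genes) and 23 in the resistant cultivar (79.3%, against 14.2%), and 2 in both (6.90%, against 0.256%). In the opposite direction 3 of the 29 were called in the susceptible and 2 in the resistant cultivar, and the median log2 ratio of the 29 at day 1 was 0.07 in the susceptible and 1.49 in the resistant cultivar.

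**Figure D4:**
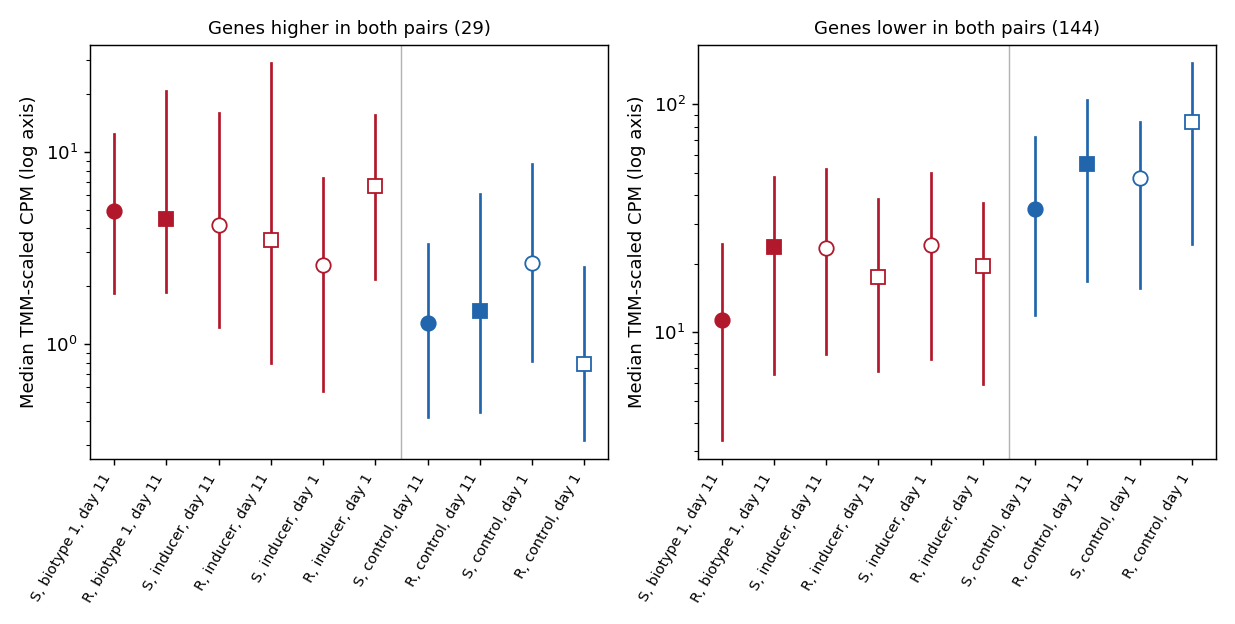
Median TMM-scaled CPM (log axes, lines span the quartiles of the genes) of the 29 genes higher and the 144 genes lower with biotype 1 in both cultivars, in each of the 10 libraries. Aphid libraries are red, controls blue, circles susceptible, squares resistant, and filled symbols mark the libraries that chose the genes. In the right panel the 6 aphid medians lie between 11.3 and 24.2 CPM and the 4 control medians between 34.6 and 83.4 CPM.

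The median level of the 144 genes was 11.3 CPM in the susceptible and 23.7 CPM in the resistant library with biotype 1, against 34.6 and 55.0 CPM in their controls. The 4 inducer libraries had medians between 17.5 and 24.2 CPM, and the controls of day 1 47.3 CPM in the susceptible and 83.4 CPM in the resistant cultivar. For the 29 genes the medians were 4.95 and 4.48 CPM with biotype 1, against 1.29 and 1.49 CPM in the susceptible and the resistant control. Here the inducer libraries ranged between 2.58 and 6.64 CPM, and the susceptible control of day 1, at 2.64 CPM, lay within that range.

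Most called genes were called in 1 cultivar only. In the susceptible pair alone 929 genes were higher and 1790 lower, and in the resistant pair alone 339 were higher and 761 lower. Of these, 743 (80.0%), 1263 (70.6%), 222 (65.5%) and 471 (61.9%) genes had a log2 ratio under 0.5 in size in the other cultivar. Such small ratios were common among all genes, whose quartiles were -0.22 and 0.21 in the resistant and -0.32 and 0.34 in the susceptible pair. The direction in the other cultivar was the same for 51.3% of the genes higher and 59.7% of those lower in the susceptible pair alone. It was the same for 44.5% of the higher and 44.4% of the lower genes of the resistant pair alone, while 54.9% of all genes had the same direction in both pairs. Across the 37468 genes, which are not independent replicates, the log2 ratios of the 2 pairs had a Pearson's r of 0.06 and a Spearman's rho of 0.12.

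A call in 1 cultivar only is not by itself a difference between the cultivars. With 1 library a condition, the difference of the 2 ratios left no residual degree of freedom and could not be tested on its own. A nearby term was fitted over the 6 libraries of day 11, with the inducer effect taken as equal in both cultivars (1 residual degree of freedom). It sets the gap between the cultivars with biotype 1 against their gap in control and inducer libraries together, so its sign can differ from that of the difference of the 2 ratios. By edgeR's quasi-likelihood test of this interaction term 0 genes passed an adjusted value of 0.05. At an unadjusted p under 0.05 the number was 1291 (3.45%), and 336 with all 10 libraries. DESeq2 called 59 genes for the same term (0.157%). Of these 59, 28 were called in opposite directions, 27 in the susceptible pair only, 3 in the resistant pair only and 1 was lower in both. These lists were chosen on libraries that the term also uses, so the counts are a description.

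A further 159 genes (0.424%) were called in opposite directions, 83 of them higher in the susceptible and lower in the resistant cultivar and 76 the other way. Of the 1041 genes higher in the susceptible cultivar, 7.97% were lower and 2.79% higher in the resistant cultivar. Of the 2010 lower genes, 3.78% were higher and 7.16% lower there. Among all genes tested, 1.19% were higher and 2.64% lower in the resistant cultivar.

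The opposite calls were densest on chromosome 7, with 19 genes (1.02% of its 1869 tested genes), followed by chromosome 16 with 13 genes (0.902%). In a stretch of 49 tested genes of that chromosome, from Glyma.07G060500 to Glyma.07G068200, 4 genes had crossed levels, which means that the susceptible library with biotype 1 and the resistant control were on 1 side of an at least 2-fold gap and the other 2 libraries on the other. The stretch and its genes were chosen after their values were seen. It held 4 opposite calls, whereas the largest count among any 30 neighbouring tested genes was 5. Glyma.07G063700 had 5.59 CPM in the susceptible library with biotype 1 and was at 0 counts in the susceptible control, whereas it was at 0 counts in the resistant library with biotype 1 and had 8.05 CPM in the resistant control. Glyma.07G065600 had 20.9 CPM with biotype 1, against 100.2 CPM in the control, in the susceptible cultivar, and 98.9 against 15.8 CPM in the resistant cultivar. Glyma.07G063600 had 13.6 against 50.3 CPM in the susceptible and 65.9 against 5.51 CPM in the resistant cultivar. Glyma.07G065500 had 3.85 against 0.600 CPM in the susceptible and 0.619 against 2.01 CPM in the resistant cultivar.

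**Figure D5:**
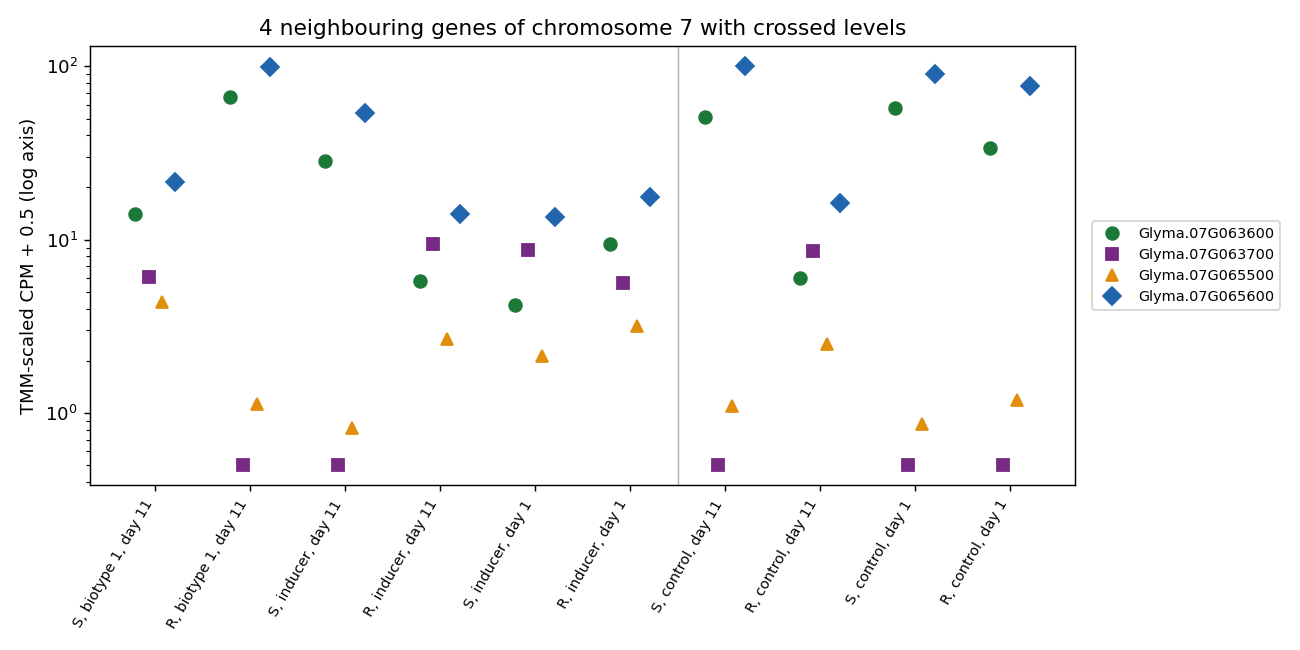
TMM-scaled CPM + 0.5 (log axis) of 4 genes of 1 stretch of chromosome 7 in the 10 libraries, aphid libraries left and controls right of the grey line, S susceptible and R resistant label. In all 4 genes the libraries S biotype 1 day 11, R inducer day 11, S inducer day 1, R inducer day 1 and R control day 11 lie on 1 side and the other 5 on the other.

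The other 6 libraries fell on the same 2 sides in all 4 genes. The libraries labelled resistant, inducer, day 1, resistant, inducer, day 11 and susceptible, inducer, day 1 were nearer to the susceptible library with biotype 1 and the resistant control. The libraries labelled susceptible, inducer, day 11, susceptible, control, day 1 and resistant, control, day 1 were nearer to the other side. Glyma.07G063700 had between 5.11 and 8.89 CPM in the first 3 and 0 counts in the other 3. These sides follow neither the treatment nor the labelled cultivar. In this stretch a difference between biotype 1 and control cannot be told apart from a difference between the plants of the pools. With 1 pool for each condition, the same holds for the genes called outside the stretch. The place of Rag1 on chromosome 7 relative to this stretch was not looked up here, and whether the cultivar labels hold at Rag1 was not tested. Without the genes of the stretch, 81 and 74 genes remained in opposite directions. The 144 lower and 29 higher genes have no member in the stretch, so their numbers could not change. These counts are therefore no check on differences between the pools elsewhere. Whether any of the 4 genes are near-identical copies, between which reads may be split, was not examined.

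Over all chromosomes, 2-fold gaps that parted the 4 libraries 2 against 2 were found mostly between the labelled cultivars. They parted the susceptible from the resistant libraries for 2347 genes high in the susceptible and 1079 high in the resistant libraries. Whether these gaps follow the cultivar was not tested. By the threshold above, 7674 genes differed between the susceptible controls of day 11 and day 1. Between the resistant control of day 11 and the susceptible control of day 1 they were 964. Both biotype 1 libraries were over both controls for 7 genes and under them for 18 genes, while 44 genes had crossed levels. Of the 18 genes, 5 (27.8%) lie on chromosome 11, the fullest chromosome for them, which has 4.88% of all tested genes. It also holds 17 of the 144 shared lower genes (0.930% of its 1827 tested genes, against 0.384% of all tested). Among the 144 genes only 2 have the next identifier of the annotation in the same list, and among the 29 also 2.

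Called genes were also counted among 30 neighbouring tested genes. In the susceptible pair the median of such windows was 2 and the largest count 11, all lower with biotype 1, on chromosome 5 between Glyma.05G041300 and Glyma.05G045200. In the resistant pair none of these 30 genes was called (0 genes). In the resistant pair the median was 1 and the largest count 14, with 6 higher and 8 lower genes, on chromosome 13 between Glyma.13G032400 and Glyma.13G035900. In the susceptible pair 6 genes of that window were called. Over the 20 chromosomes, between 7.04% and 9.38% of the tested genes were called in the susceptible pair, and between 2.48% and 5.23% in the resistant pair, where chromosome 14 had the highest value.

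Both cultivars were then tested together by edgeR's quasi-likelihood test on the 6 libraries of day 11, with cultivar as a block and the inducer as its own treatment (2 residual degrees of freedom). It takes the spread from what the model leaves unexplained, which holds differences between the cultivars in their response as well as differences between pools. At an adjusted value under 0.05 it called 0 genes for biotype 1 alone against control, and the smallest adjusted p was 0.880. An unadjusted p under 0.05 was found for 1796 genes (4.79%). DESeq2 called 12 genes (0.032%), 4 higher and 8 lower with biotype 1, of which 4 were among the 29 and 7 among the 144 shared genes. Since the shared genes were chosen on 4 of the 6 libraries of this fit, the overlap is a description only. The log2 ratio of edgeR was -5.22 (standard error 1.40) for Glyma.02G228100, -2.48 (1.17) for Glyma.11G121800, 2.23 (0.44) for Glyma.08G173400 and 1.56 (0.41) for Glyma.02G213700. The edgeR adjusted p was 0.880 for each of them, and DESeq2 gave Glyma.08G173400 an adjusted p of 0.00944.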

How the data were processed

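Leaf RNA of 10 pooled soybean libraries was sequenced on an Illumina NextSeq instrument. Trimming was done with Trimmomatic 0.36 and quantification with Salmon 0.9.1 on primary transcripts of Wm82.a2.v1. The authors deposited estimated counts (expected counts) per gene without any scaling, and which strand and bias settings Salmon had is not given in the sources used here. Estimated counts were rounded to whole numbers. The filter of the paper's methods (over 0.5 CPM in 1 library or more) was applied.

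CPM was scaled with TMM factors (edgeR 4.0.16, R 4.3.3), 0.5 CPM was added before log2 ratios, and Kal's z-test was run on the counts of 2 libraries with TMM sizes. The paired test and the interaction used edgeR's quasi-likelihood test with robust estimation, and DESeq2 1.42.0 (Wald test) as an alternative, which set 2181 adjusted values of the paired test and 4360 of the interaction to NA. Adjustment was by Benjamini-Hochberg at 0.05 over all genes tested. Intervals of ratios are exact binomial (95%). Scripts were tested on simulated data. Figures were drawn with matplotlib 3.10.9.

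Counts without the chromosome 7 stretch and without the resistant control of day 1 were added after seeing the data. The comparison, members and lists were chosen with earlier results of these data known. Genes were named by the largest smaller ratio of the 2 pairs, 2 higher and 2 lower, with a mean of at least 5 CPM. Glyma.11G121700, the identifiers that bound windows and the chromosome 7 genes were named after their values were seen. Gene lists by annotation keyword, promoter motifs and tissue markers were not run, since 0 identifiers matched the reference table (assembly Glycine_max_v4.0). Alternatives covered scaling, filter, fold, pseudocount, tool and libraries.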

Additional observations from a re-analysis of the deposited data

How the results depend on the processing

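With library totals in place of TMM, the susceptible pair had 2290 higher and 1129 lower genes, and 52 genes were higher and 66 lower in both cultivars. With DESeq2 size factors no count moved by over 1.5 times. A filter of over 0.5 CPM in all 4 libraries left 279 genes higher in the resistant pair and 18 higher in both. A 1.5-fold limit gave 4089 higher and 5100 lower genes in the susceptible pair, 1744 and 2967 in the resistant pair, 247 and 901 in both, and 776 in opposite directions. A 4-fold limit gave 68 and 207, 38 and 128, 0 and 2, and 8 in the same order. With a pseudocount of 2 CPM these were 439 and 1323, 154 and 631, 6 and 91, and 76. Without the filter no count of these genes moved by over 1.5 times. The log2 ratios of the 4 genes named by rule kept their direction and call under both scalings and the larger pseudocount.

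The paired test of edgeR called 0 genes under library totals, without the filter, with all 10 libraries, with the 4 libraries alone and without the cultivar block, and between 0 and 0 with each of the 6 libraries of day 11 left out. The number of genes at an unadjusted p under 0.05 was 557 without the susceptible library with biotype 1 and 2934 without the resistant one, against 1796 with all 6. DESeq2 called 12. The interaction test of edgeR called 0 genes in all 4 fits run, with 336 genes at an unadjusted p under 0.05 with all 10 libraries against 1291 with 6, and DESeq2 called 59. No paired analysis by replicate number was possible because each condition has 1 library. Depth limits statements on genes near 3 counts, between 0.109 and 0.138 CPM, and without replicates the spread between plants of 1 condition is unknown.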
